A study of Mus musculus with 5 samples.

Results

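Toll-like receptors are membrane proteins that bind molecules of microbes or of damaged cells. Most of them sit on the cell surface or in endosomes of macrophages, dendritic cells and neutrophils, and several are also made by the epithelium and stroma of the female tract. All of the receptors below except Tlr3 pass their signal on through the adaptor protein MyD88. That signal leads to NF-kB and to the transcription of cytokines and chemokines. In the uterus several of the receptors are known as sensors of bacterial products. The genes described here are 10 genes picked by symbol from the 28666 genes of the count table. They comprise 8 receptors (Tlr1, Tlr2, Tlr3, Tlr4, Tlr5, Tlr6, Tlr7 and Tlr9), the adaptor Myd88, and Ly96, which encodes MD-2, the lipopolysaccharide-binding partner of TLR4. Each of the 10 symbols matched 1 row, and 10 of the 10 had enough counts to be tested.

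The measurement was RNA-seq of whole uteri of ICR females, an outbred strain, aged 6 to 8 weeks. The young-SP group (replicates 1, 2 and 4) had been caged with vasectomized C57BL/6 males of 12 to 14 weeks, and the aged-SP group (replicates 1 and 4) with vasectomized C57BL/6 males of 12 to 18 months, so that both groups received seminal plasma (SP) without sperm and carried no embryos. The uteri were collected 3.5 days after caging according to the labels and at 3.0 days post coitum according to the methods of the study, and the comparison addresses whether the age of the male alters the uterus before implantation. The labels do not say whether each library is 1 female, and the p-values below measure the spread between these libraries. The paper reports that a young-SP sample was excluded as an outlier in hierarchical clustering. The spread of the young-SP group is therefore that of the libraries that were kept.

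Total counts lay between 15071914 and 16728601 per library. Young-SP replicate 1 stood apart from the other young-SP libraries, since the chi-square over genes, divided by its degrees of freedom, was 48.0 and 40.2 against replicates 2 and 4 but 18.5 between those 2 replicates. A gene was called where the Benjamini-Hochberg adjusted p of the two-sided quasi-likelihood test of edgeR lay under 0.05 and the log2 fold change, aged-SP over young-SP, was above 1 or below -1. Without young-SP replicate 1, 578 of all tested genes were called in place of 25, and 0 of the 10 genes described here with or without it. In the stroma list, Hoxa10 (437 to 519 CPM, the counts per library scaled to a common total) was high in every library. So were Pgr of that list (200.04 to 288 CPM) and the smooth muscle gene Myh11 (3052 to 5110 CPM). The genes of the stroma list were not level between the groups. Of 7, Pdgfra, Hand2, Hoxa11 and Pgr lay below every young-SP value in both aged-SP libraries and Esr1 above (Pdgfra at 347 and 344 CPM against 453, 617 and 560 CPM, adjusted p = 0.120 by edgeR and 0.00476 by DESeq2). That is 4 of 7 apart downwards, beside 19.3% of all tested genes, and 1 of 7 upwards, beside 19.5%. The part of stromal content in the differences below was not tested. Summed markers of stroma (2152 to 3182 CPM), myometrium (7996 to 12305 CPM), endothelium (356 to 635 CPM), dendritic cells (369 to 479 CPM), B cells (3.27 to 6.63 CPM), mast cells (34.7 to 148 CPM), all leukocytes (281 to 396 CPM) and ovary and oviduct (56.5 to 275 CPM) overlapped between the groups. The stroma sums overlapped only narrowly, at 2433 CPM in aged-SP replicate 4 and 2432 CPM in young-SP replicate 1. The dendritic cell sum was mostly Cd74 (259 to 354 CPM). Of the 9 dendritic cell genes, 1 was apart upwards (Itgax) and 1 downwards (Flt3), beside 19.5% and 19.3% of all tested genes. Of the 4 mast cell genes, Kit was apart downwards, and the other 3 were higher with overlapping groups. Markers of vagina and cervix (Krt5, Krt13, Krt10 and Krtdap) summed to 3.32 and 4.48 CPM in the aged-SP libraries and to between 5.79 and 15.8 CPM in the young-SP libraries. That sum was mostly Krt10, at 2.96 and 4.03 CPM against 9.26, 5.56 and 14.95 CPM. Krt5, Krt13 and Krtdap had too few counts to be tested, with at most 0.563 CPM in any library of either group. Since whole uteri were sequenced, fewer cells of a type and less RNA per cell cannot be told apart.

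The uterus contained transcripts of all 8 receptors, at very different levels. On the scale of FPKM, which divides the count by gene length and library total, the adaptor Myd88 had the highest mean over the 5 libraries (22.6 FPKM). Myd88 was above Tlr2 in 4 of 5 libraries, and in the aged-SP group their means were 14.9 and 15.2 FPKM. Tlr2 (10.5 FPKM) and Tlr4 (9.85 FPKM) followed, and these neighbours did not separate, since Tlr2 was above Tlr4 in 3 of 5 libraries. Tlr3, the endosomal sensor of double-stranded RNA, had a mean of 5.54 FPKM and lay below Tlr4 in 5 of 5 libraries. The levels of Tlr3, Tlr1 (4.63 FPKM) and Ly96 (4.53 FPKM) overlapped, with Tlr3 above Tlr1 in 3 of 5 libraries and Tlr1 above Ly96 in 2 of 5. Tlr7, an endosomal sensor of single-stranded RNA, had 3.50 FPKM, Tlr6 had 2.14 FPKM and Tlr9, the endosomal sensor of unmethylated CpG DNA, had 1.77 FPKM, with Tlr6 above Tlr9 in 2 of 5 libraries. Tlr5, which binds bacterial flagellin, was the lowest in 5 of 5 libraries, between 0.366 and 0.959 FPKM.

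The regulatory sequence of 3 of these genes is given before their values, because each differed between libraries in its own way and each window holds a match to a motif of immune gene promoters. The windows are the 250 bases before the annotated start in RefSeq on GRCm38.p6, written 5′ to 3′ on the strand of the gene, with motif matches in capitals. The gene positions printed further below are those of the count table, where Tlr2 and Myd88 begin further upstream. The window of Myd88 therefore lies wholly inside that gene span and the window of Tlr2 partly. In Tlr2 (chr3:83841609-83841858, minus strand) the capitals mark overlapping matches to the NF-kB motif, at positions -173 to -163 before the start. In Myd88 (chr9:119340019-119340268, minus strand) they mark a match to an interferon response element (GAAANNGAAA) at positions -40 to -31. In Tlr9 (chr9:106222348-106222597, plus strand) they mark a match to the ETS core (GAGGAA), which the myeloid factor PU.1 is known to bind, at positions -112 to -107.
Tlr2: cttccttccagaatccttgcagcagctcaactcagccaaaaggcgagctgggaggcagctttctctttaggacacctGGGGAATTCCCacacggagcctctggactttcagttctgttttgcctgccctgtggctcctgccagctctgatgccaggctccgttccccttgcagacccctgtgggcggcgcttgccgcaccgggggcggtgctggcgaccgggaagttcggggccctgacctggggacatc
Myd88: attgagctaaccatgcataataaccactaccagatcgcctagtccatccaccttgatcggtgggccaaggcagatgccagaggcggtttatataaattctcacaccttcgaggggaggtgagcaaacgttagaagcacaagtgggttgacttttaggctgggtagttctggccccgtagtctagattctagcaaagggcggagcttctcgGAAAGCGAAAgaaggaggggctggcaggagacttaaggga
Tlr9: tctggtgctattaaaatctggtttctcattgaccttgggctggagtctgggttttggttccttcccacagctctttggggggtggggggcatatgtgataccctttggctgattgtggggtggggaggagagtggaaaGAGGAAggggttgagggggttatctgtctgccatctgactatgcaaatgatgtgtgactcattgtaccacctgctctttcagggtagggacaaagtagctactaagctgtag
Both strands were searched. Of 32841 promoter windows of the same length, 7.25% held the NF-kB motif, 2.98% the interferon response element and 23.3% the ETS core. Windows were found for 7 of the 10 genes (9 windows, with 2 each for Tlr1 and Tlr6). The NF-kB motif was also matched in Tlr3, the interferon response element in a window of Tlr6 and the ETS core in a window of Tlr1. A match describes the letters and is no evidence of binding.

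By the call rule 0 of the 10 genes were called, against 0.147% of all tested genes (0.0823% upwards and 0.0647% downwards), and 0 also on the adjusted p alone (0.153%). With other choices 0 of the 10 were called too, against a background of 0.106% with DESeq2 size factors, 0.129% with the total count alone, 0.159% with limma-voom, 0.708% without a filter, 0.125% with at least 10 counts in every library, 0.0118% with a replicate block and 3.6% with DESeq2. With libraries left out in turn the count was 0 again, against 0.00568% and 0.278% without aged-SP replicates 1 and 4, and 3.45%, 0.018% and 0.0119% without young-SP replicates 1, 2 and 4. At an unadjusted p under 0.05 in edgeR there were 3 of 10 (Tlr4 and Tlr5 higher, Myd88 lower in the aged-SP group), against 19% of all tested genes. The groups did not overlap in 4 of 10 genes (Tlr4, Tlr5 and Ly96 higher, Myd88 lower), against 38.8% of all tested genes (19.5% upwards and 19.3% downwards), so the share was close to the background. The median log2 fold change, aged-SP over young-SP, was 0.10 over the 10 genes and 0.007 over all tested genes, with 6 genes above 0 and 4 below. The members did not move together: the 3 receptors with the largest positive values were Tlr2, Tlr4 and Tlr5, the adaptor Myd88 had the largest negative value, and Tlr1, Tlr3, Tlr7 and Tlr9 lay between -0.06 and 0.14.

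**Figure D1:**
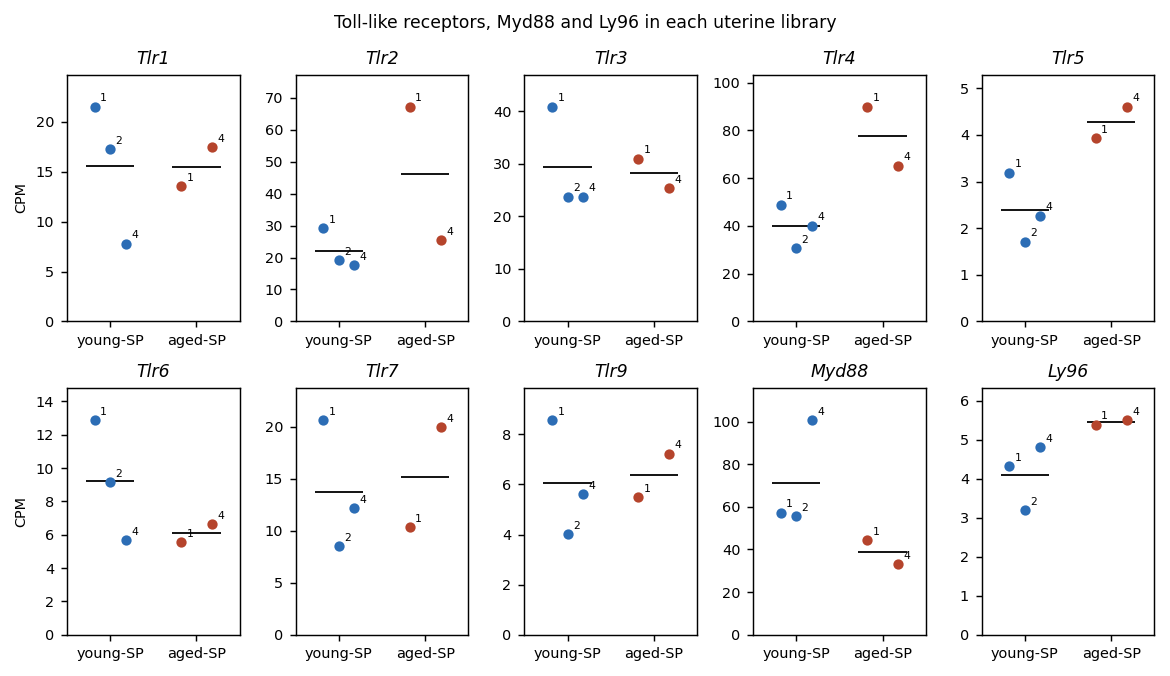
Each panel plots the CPM of 1 gene (vertical axis, starting at 0) in the 3 young-SP and 2 aged-SP libraries, with the replicate number beside each point and a bar at the group mean. The aged-SP points of Tlr4, Tlr5 and Ly96 all lie above the young-SP points, those of Myd88 lie below, and aged-SP replicate 1 stands far above the rest for Tlr2 (67.2 CPM).

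Among the receptors for bacterial surface molecules, Tlr4 had the smallest p of the 10 genes. TLR4 binds lipopolysaccharide together with MD-2 and CD14, and its gene lies on chromosome 4 (66827584 to 66930284, plus strand, 6 exonic blocks, all positions on GRCm38). The level of Tlr4 was 89.9 CPM in aged-SP replicate 1 and 65.2 CPM in replicate 4, and 48.9, 30.6 and 40.1 CPM in young-SP replicates 1, 2 and 4. Both aged-SP libraries were above all young-SP libraries. The mean was 77.6 ± 17.4 CPM (SD, n = 2) for aged-SP uteri, and for young-SP uteri it was 39.9 ± 9.15 CPM (SD, n = 3). The log2 fold change was 0.96 (standard error 0.23, 95% confidence interval 0.38 to 1.54), with an adjusted p of 0.131 in edgeR. In DESeq2's Wald test the adjusted p was 0.00896 at a log2 fold change of 0.96, under 0.05 but short of the fold threshold, where 7.58% of all genes with an adjusted p were under 0.05. Tlr4 was the 1 member under 0.05 by any of the tools (edgeR, DESeq2 and limma-voom) on the 5 libraries. Its log2 fold change was 0.71 without aged-SP replicate 1 and 1.12 without young-SP replicate 1, with adjusted p = 0.417 and 0.0575 in edgeR.

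Ly96 on chromosome 1 (16688051 to 16709611) encodes the MD-2 protein that holds the lipid part of lipopolysaccharide. Its level was 5.38 and 5.50 CPM in the aged-SP libraries and 4.32, 3.19 and 4.81 CPM in the young-SP libraries. The groups did not overlap, but they were close to each other, with a log2 fold change of 0.41 (95% confidence interval -0.21 to 1.03, adjusted p = 0.425 in edgeR). On the FPKM scale, the ratio of Tlr4 to Ly96 was 3.07 and 2.18 in the aged-SP libraries and between 1.53 and 2.08 in the young-SP libraries. That ratio is drawn from the levels of both genes and is no separate result. Cd14, the third protein of the lipopolysaccharide receptor, was far more abundant and far more variable: 676 and 140.0 CPM in the aged-SP libraries and 250.9, 69.5 and 89.1 CPM in the young-SP libraries (adjusted p = 0.356 in edgeR).

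Tlr2, on chromosome 3 (83836272 to 83841767, minus strand), encodes the receptor of bacterial lipoproteins, which works as a pair with TLR1 or TLR6. Its level was 67.2 CPM in aged-SP replicate 1 and 25.4 CPM in replicate 4, and 29.1, 19.2 and 17.6 CPM in young-SP replicates 1, 2 and 4. The groups overlapped, because aged-SP replicate 4 was below young-SP replicate 1. The log2 fold change was 1.07 (95% confidence interval -0.02 to 2.17, adjusted p = 0.273 in edgeR) and was 0.21 without aged-SP replicate 1 (adjusted p = 0.836 in edgeR). The coefficient of variation over the 5 libraries, 64.3%, was the largest of the 10 genes. The neutrophil marker list summed to 103 and 31.0 CPM in the aged-SP libraries and to 219, 53.2 and 36.2 CPM in young-SP replicates 1, 2 and 4, with Elane at 3 counts or fewer everywhere, and its part in the level of Tlr2 was not tested.

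Tlr1 and Tlr6, the partner receptors, are neighbours on chromosome 5 (64924679 to 64933563 and 64952031 to 64960097, both on the minus strand). Tlr1 was at 13.5 and 17.5 CPM in the aged-SP libraries and at 21.5, 17.3 and 7.81 CPM in the young-SP libraries, so that the aged-SP values lay inside the young-SP range. Tlr6 was at 5.56 and 6.65 CPM in the aged-SP libraries and at 12.9, 9.16 and 5.67 CPM in the young-SP libraries. The log2 fold changes were -0.004 for Tlr1 (95% confidence interval -1.07 to 1.06) and -0.60 for Tlr6 (-1.52 to 0.33), intervals that leave room for changes of either sign. The ratio of Tlr2 to Tlr6 in FPKM was 14.9 and 4.72 in the aged-SP libraries and between 2.58 and 3.84 in the young-SP libraries. Each of these genes overlapped between the groups by itself, and their ratio is no separate result. Counts of this pair carry an uncertainty of their own, since 13.6% of the 50-base stretches of Tlr1 occur in Tlr6 and 12.3% of those of Tlr6 occur in Tlr1, and 15.4% of those of Tlr1 occur in some other gene.

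Tlr5 on chromosome 1 (182954788 to 182976044, plus strand) was the least abundant member. Its counts were 65 and 72 for aged-SP replicates 1 and 4 and 51, 29 and 34 for young-SP replicates 1, 2 and 4, or 3.93 and 4.60 CPM against 3.19, 1.71 and 2.27 CPM. Both aged-SP libraries were above all young-SP libraries. The log2 fold change was 0.83 (standard error 0.32, 95% confidence interval 0.02 to 1.64), with an adjusted p of 0.254 in edgeR and 0.287 in DESeq2. The markers of uterine epithelium summed to 1187 and 1255 CPM in the aged-SP libraries and to 1539, 725 and 909 CPM in the young-SP libraries. Of these 7 markers, 5 had a positive log2 fold change and 2 a negative one. Only Krt18 was apart, upwards, beside 19.5% of all tested genes. The part of the epithelium in the level of Tlr5 was not tested.

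**Figure D2:**
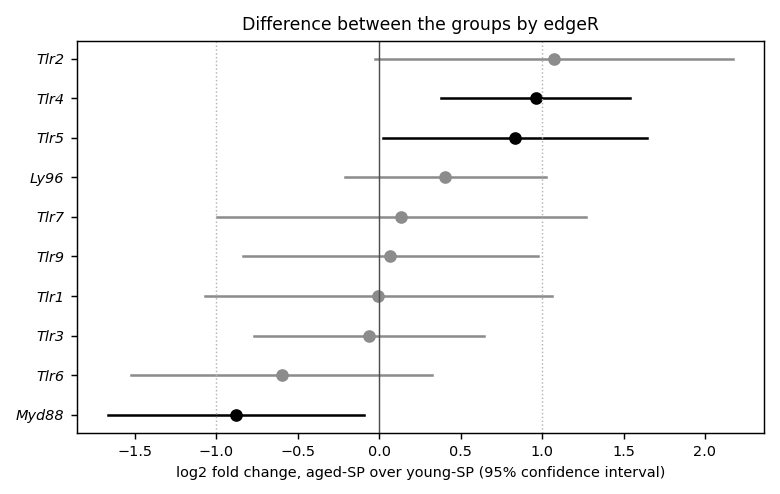
The horizontal axis is the log2 fold change of each gene, aged-SP over young-SP, from edgeR, with its 95% confidence interval as a line, and dotted lines mark the fold threshold of 1 on either side. The 3 genes with an unadjusted p under 0.05 (Tlr4, Tlr5 and Myd88) are black and their intervals do not reach 0, and the other 7 are grey.

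The endosomal receptors for nucleic acids did not separate the groups. Tlr7, on chromosome X (167304929 to 167330558), was at 10.3 and 19.95 CPM in aged-SP replicates 1 and 4 and at 20.6, 8.51 and 12.1 CPM in young-SP replicates 1, 2 and 4. Tlr9, on chromosome 9 (106222598 to 106226883), was at 5.50 and 7.23 CPM and at 8.57, 4.02 and 5.61 CPM in the same order. In both genes young-SP replicate 1 was the highest library, aged-SP replicate 4 the next and young-SP replicate 2 the lowest. The log2 fold changes were 0.14 for Tlr7 (95% confidence interval -0.997 to 1.27, adjusted p = 0.896 in edgeR) and 0.07 for Tlr9 (-0.83 to 0.97, adjusted p = 0.936 in edgeR).

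Tlr7 and Tlr9 ran with several macrophage markers from library to library, but not with all of them. Of the others, Cd68 was at 58.8 CPM in aged-SP replicate 4 and only 30.5 CPM in young-SP replicate 1. Mrc1 was lowest in aged-SP replicate 1 (77.1 CPM). Likeness was measured as the root mean square difference between the deviations of log2 CPM of a pair of genes from their own means over the 5 libraries, which share depth and tissue makeup between all genes. Among 130 genes of the pathway and marker lists, the nearest to Tlr7 were C1qc (0.0725), the related receptor Tlr8 (0.0980) and C1qa (0.107), where C1qa, C1qb and C1qc encode the complement protein that tissue macrophages make. The median difference of Tlr7 from the 130 genes was 0.564, and 0 of all tested genes were nearer to Tlr7 than C1qc. For the other members between 4 and 406 tested genes were nearer than the nearest list gene. For Tlr9 the nearest were Adgre1 (0.0830), which encodes the macrophage protein F4/80, C1qa (0.107) and C1qb (0.129), against a median of 0.430, and 4 of all tested genes were nearer than Adgre1. The nearest member to each was the other of the pair (0.188). Set against the summed CPM of 9 macrophage markers, Tlr7 held between 0.783 and 1.001 CPM per 100 CPM of markers and Tlr9 between 0.323 and 0.417. The coefficient of variation over the 5 libraries was 39.2% for the CPM of Tlr7 and 9.61% for this quotient, and 28.3% and 9.83% for Tlr9. For the other 8 genes the quotient varied by between 25.6% and 77.8%. The macrophage markers themselves summed to 1321 and 2236 CPM in the aged-SP libraries and to between 1026 and 2062 CPM in the young-SP libraries. Lyz2 made up most of that sum, at 723 and 1290 CPM in the aged-SP libraries. In young-SP replicates 1, 2 and 4 it was at 1060, 545 and 755 CPM. The quotients therefore rest largely on that gene. The list genes nearest to other members were Irak2 for Tlr4 (0.228, with 158 of all tested genes nearer), Unc93b1 for Tlr5 (0.219, 165 nearer), Ly86 for Tlr1 (0.249, 57 nearer), Pgr for Tlr6 (0.282, 406 nearer) and Irf5 for Ly96 (0.111, 45 nearer). With 5 libraries these likenesses are descriptions.

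**Figure D3:**
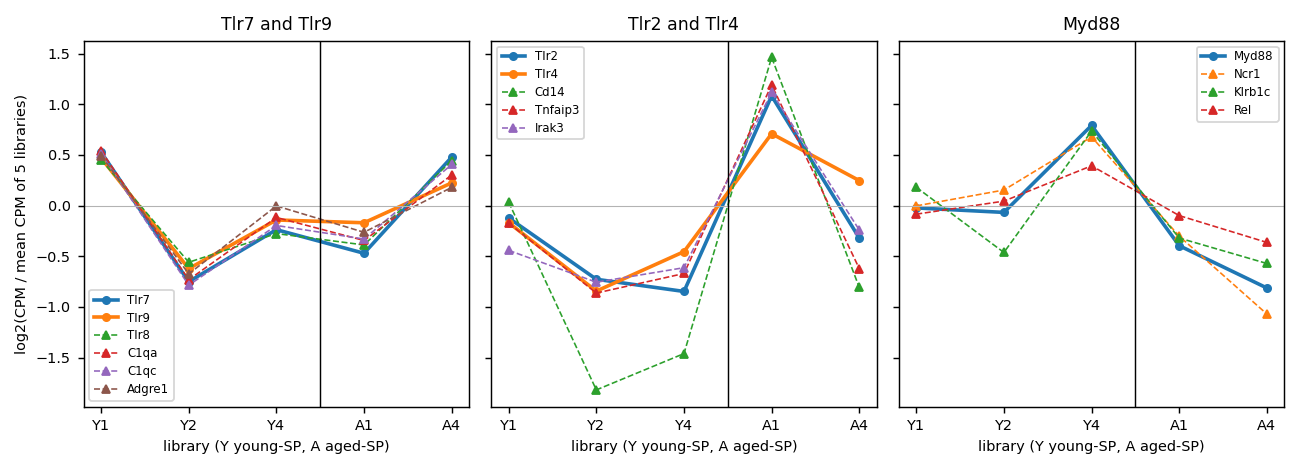
Each panel plots log2 of the CPM over the gene's mean CPM of the 5 libraries for members (thick lines, circles) and for genes of the pathway and marker lists (dashed lines, triangles). The libraries are young-SP replicates 1, 2 and 4 (Y1, Y2, Y4) and aged-SP replicates 1 and 4 (A1, A4), and the lines only join the points of a gene, with no order among libraries. Tlr7 and Tlr9 run with C1qa, C1qc and Adgre1, Tlr2 peaks in A1 with Cd14, Tnfaip3 and Irak3, and Myd88 peaks in Y4 with Ncr1.

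Tlr3 differs from the other members in that it signals through the adaptor TRIF (Ticam1) and not through MyD88. Its gene lies on chromosome 8 (45395665 to 45411080), and it was at 31.0 and 25.4 CPM in the aged-SP libraries and at 40.8, 23.8 and 23.7 CPM in the young-SP libraries. The aged-SP values lay inside the young-SP range, with a log2 fold change of -0.06 (95% confidence interval -0.77 to 0.64, adjusted p = 0.925 in edgeR). The nearest list gene was Ptprc, the common leukocyte antigen (0.131), with 63 of all tested genes nearer still. An antisense gene, Gm45542, overlaps 381 bases of the exons of Tlr3, and reads from the 2 strands may not be told apart. Ticam1 itself lay between 16.1 and 20.2 CPM in all 5 libraries, and its groups overlapped.

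Myd88, the adaptor shared by the other receptors, was the 1 member with both aged-SP values below every young-SP value. It lies on chromosome 9 (119335934 to 119341411, minus strand). Its level was 44.3 and 33.1 CPM in aged-SP replicates 1 and 4 and 57.3, 55.6 and 100.7 CPM in young-SP replicates 1, 2 and 4. Young-SP replicate 4 was far above the other 4 libraries. The mean was 38.7 ± 7.86 CPM (SD, n = 2) for aged-SP uteri, and for young-SP uteri it was 71.2 ± 25.6 CPM (SD, n = 3), with a log2 fold change of -0.88 (standard error 0.31, 95% confidence interval -1.66 to -0.10). The adjusted p was 0.229 in edgeR, 0.252 in limma-voom and 0.0751 in DESeq2. Without young-SP replicate 4 the log2 fold change was -0.55 (adjusted p = 0.302 in edgeR). The exons of Myd88 overlap those of Acaa1a on the other strand by 290 bases, and 7.42% of its 50-base stretches occur in that gene.

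Over the 5 libraries the gene of the lists nearest to Myd88 was Ncr1 (0.162), which encodes the natural killer cell receptor NKp46, ahead of Klrb1c (0.229) and the NF-kB subunit gene Rel (0.295), and against a median of 0.657. Of all tested genes, 11 were nearer than Ncr1. Ncr1 was at 9.91 and 5.82 CPM in the aged-SP libraries and at 12.2, 13.6 and 19.6 CPM in the young-SP libraries (adjusted p = 0.221 in edgeR). The 7 markers of T and NK cells summed to 34.0 and 30.4 CPM in the aged-SP libraries and to 40.9, 36.5 and 60.3 CPM in the young-SP libraries, with 1 gene higher and 6 lower and 0 called. The part of these cells in the level of Myd88 was not tested. No other member ran close to Myd88, its nearest being Tlr3 at 0.645. In FPKM the ratio of Myd88 to Tlr4 was 1.06 and 1.10 in the aged-SP libraries and 2.53, 3.91 and 5.42 in the young-SP libraries. That ratio joins a gene that was higher with one that was lower and is no separate result.

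**Figure D4:**
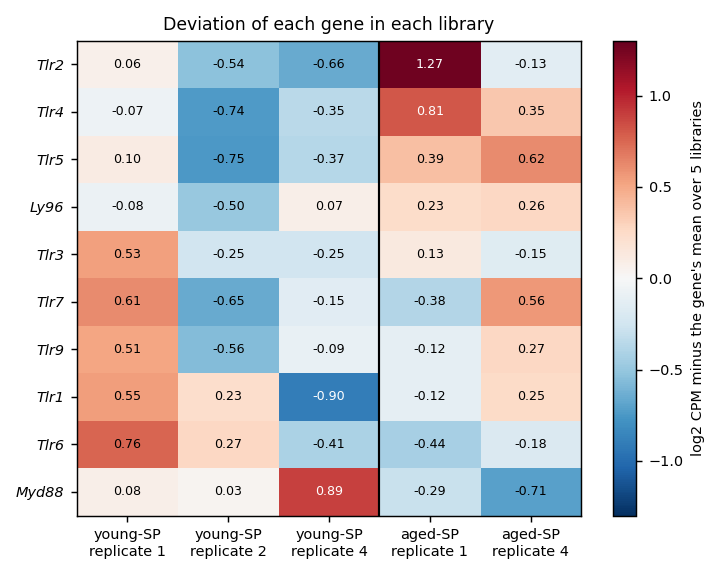
Rows are the 10 genes and columns the 5 libraries, and each cell gives log2 CPM minus the mean of that gene over the libraries (colour scale from blue, below the mean, to red, above it). Tlr2 in aged-SP replicate 1 (1.27) and Myd88 in young-SP replicate 4 (0.89) are the highest cells, and Tlr1 in young-SP replicate 4 (-0.90) is the lowest.

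The other genes of the pathway, 62 in 7 lists, were compared in the same fit, and 61 had enough counts. By the call rule 0 of the 61 were called, against 0.147% of all tested genes. At an unadjusted p under 0.05 in edgeR, 7 had a positive and 1 a negative log2 fold change, against 9.62% and 9.36% of all tested genes. DESeq2 gave 2 of them an adjusted p under 0.05, both higher, Relb and Cxcl1, a share below the 7.58% of all genes. The median log2 fold change of the 61 genes was 0.16, with 43 above 0 and 18 below.

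Upstream, the 4 other receptor genes were 0 of 4 at an unadjusted p under 0.05, with a median log2 fold change of -0.33. Tlr13, a sensor of bacterial ribosomal RNA, ranged from 8.10 to 27.8 CPM and was highest in young-SP replicate 1, and Tlr11 reached at most 4.47 CPM, with overlapping groups for both. Tlr8 lay between 7.63 and 15.4 CPM, also with overlap. Of 8 genes for ligand delivery and receptor folding, 1 had an unadjusted p under 0.05, Cnpy3, a chaperone of the receptors, at a log2 fold change of -0.26. Hsp90b1, the chaperone gp96 and the most abundant of the list, lay between 265 and 513 CPM with overlapping groups. Lbp, which carries lipopolysaccharide to CD14, was at 373 CPM in aged-SP replicate 1 and 181 CPM in replicate 4, against 221, 137 and 143 CPM in the young-SP libraries. The 5 other adaptors held 0 such genes, with Tirap, which bridges TLR2 and TLR4 to MyD88, at 0.43 on the log2 scale (edgeR adjusted p = 0.347). Pik3ap1, the most abundant of them, lay between 26.2 and 50.6 CPM with overlapping groups (-0.28 on the log2 scale).

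Of 15 kinases and ubiquitin ligases, 1 had an unadjusted p under 0.05. Traf6, the ubiquitin ligase downstream of MyD88, was at 43.1 and 40.4 CPM in the aged-SP libraries and between 33.0 and 35.9 CPM in the young-SP libraries, a log2 fold change of 0.28. Irak2, a kinase of the MyD88 complex, was at 0.54 on the log2 scale (edgeR adjusted p = 0.276). Tab2, the most abundant of the list, lay between 106 and 125 CPM with overlapping groups. Of 10 transcription factors, 3 had an unadjusted p under 0.05, the NF-kB subunit genes Relb, Rela and Nfkb2, and the aged-SP values of each lay above every young-SP value. That is 3 of 10 apart upwards, beside 19.5% of all tested genes, and 2 of 10 were apart downwards, beside 19.3%. The latter were Rel, another NF-kB subunit gene, at 20.1 and 16.8 CPM against 20.3, 22.2 and 28.3 CPM (-0.36 on the log2 scale), and Irf3, at 48.8 and 48.4 CPM against 51.4, 52.1 and 52.7 CPM (-0.10). Nfkb1, the most abundant of the list, lay between 88.4 and 114 CPM with overlapping groups. Relb was at 25.5 and 16.5 CPM against 11.4, 11.1 and 13.4 CPM, with a log2 fold change of 0.81, and the adjusted p was 0.154 by edgeR and 0.0475 by DESeq2. Rela was at 85.3 and 69.3 CPM against 59.0, 59.9 and 60.5 CPM, with 0.37 on the log2 scale (edgeR adjusted p = 0.179). For Relb and Rela, aged-SP replicate 1 was the highest library.

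Of 8 inhibitors, 1 had an unadjusted p under 0.05. Irak3, a decoy kinase that blocks the MyD88 complex, was at 29.7 and 11.6 CPM in the aged-SP libraries and between 8.10 and 10.1 CPM in the young-SP libraries (log2 fold change 1.19, adjusted p = 0.207 in edgeR). Tnfaip3, which encodes the NF-kB inhibitor A20, was at 39.8 CPM in aged-SP replicate 1 and between 9.58 and 15.4 CPM in the other 4 libraries. Nfkbia, the most abundant inhibitor and itself an NF-kB target, was at 144 CPM in aged-SP replicate 1 and between 58.9 and 83.0 CPM in the other 4 libraries. Irak3 and Tnfaip3 were also among the 3 list genes nearest to Tlr2, at 0.181 and 0.169, against a median of 0.764 for Tlr2, and 13 of all tested genes were nearer to Tlr2 than Tnfaip3.

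The genes that the pathway induces had the largest values and the largest spread. Of 11 tested targets, 10 were above 0 with a median log2 fold change of 1.27, against 8663 of all 17013 tested genes above 0. An unadjusted p under 0.05 in edgeR was found for 2 of the 11, against 19% of all tested genes. The chemokine gene Ccl2 was at 42.9 CPM in aged-SP replicate 1, at 2.24 CPM in aged-SP replicate 4 and between 1.83 and 2.54 CPM in the young-SP libraries (log2 fold change 3.35, adjusted p = 0.198 in edgeR). The chemokine gene Cxcl1 was at 14.03 CPM in aged-SP replicate 1, 0.640 CPM in replicate 4 and between 0.0591 and 0.813 CPM in the young-SP libraries (log2 fold change 4.17, adjusted p = 0.202 in edgeR and 0.0146 in DESeq2). Ptgs2, the prostaglandin synthase COX-2 and the most abundant target on average, was at 29.1 and 20.5 CPM in the aged-SP libraries and at 16.9, 2.78 and 4.67 CPM in the young-SP libraries, without overlap (log2 fold change 1.61, edgeR adjusted p = 0.314). Without young-SP replicate 1 Ptgs2 was called, at 2.73 on the log2 scale (edgeR adjusted p = 0.0244). In that fit 3.45% of all tested genes were called. Without aged-SP replicate 4 Ccl2 was at 4.28 on the log2 scale. Without aged-SP replicate 1 the median of the targets was -0.40, with 4 above 0 and 7 below, while the median of the 10 members was 0.23. Aged-SP replicate 1 was the highest of the 5 libraries for Tlr2, Tlr4, Cd14, Irak3, Tnfaip3, Ccl2 and Cxcl1, and the part of that library in these differences was not tested beyond leaving it out.

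**Figure D5:**
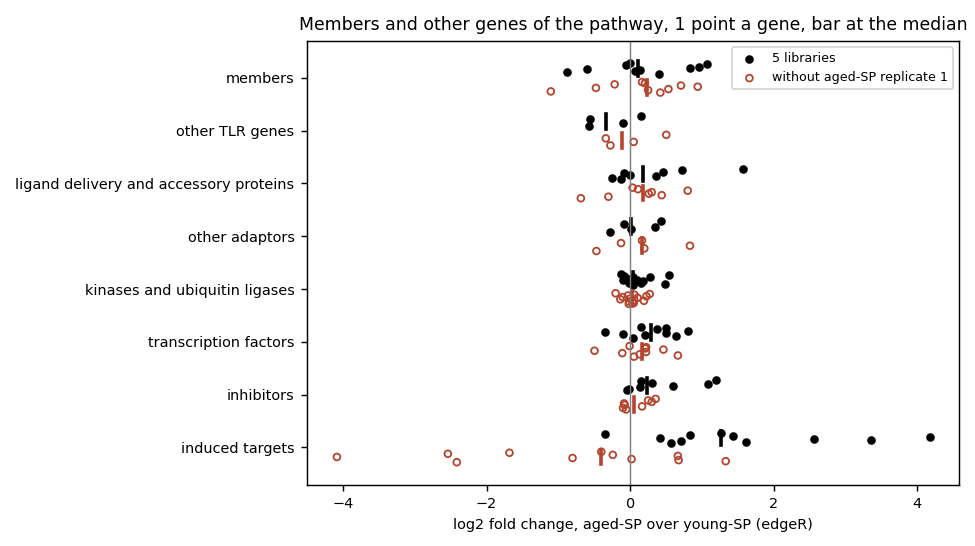
Each point is the log2 fold change of 1 gene, aged-SP over young-SP, by list, from all 5 libraries (black) and without aged-SP replicate 1 (open red), with a bar at the median. The median of the induced targets moves from 1.27 to -0.40 without that library, and the median of the members from 0.10 to 0.23.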

How the data were processed

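RNA of whole uteri was sequenced in 5 libraries, 2 of the aged-SP and 3 of the young-SP group, assigned from the sample titles. The reads were filtered and aligned by the authors with HISAT2 2.1.0, and the deposited counts are unnormalized counts per gene. HTSeq 0.6.0 and Bowtie2 2.2.3 are also listed in the submitters' processing notes. The deposited FPKM of the authors are these counts divided by exonic length and library total, which was checked on the values. They were used only to compare levels between genes. The table also holds the fold changes and p-values of the authors' own DESeq2 comparison, which were not used. The build is not given in the sources used here, but 26998 of the 28666 positions equal those of GENCODE M21 on GRCm38, the 10 members among them, and it lacks 74 of the identifiers.

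The counts were tested in edgeR 4.0.16 (filterByExpr, TMM factors between 0.990 and 1.02, glmQLFit and glmQLFTest, Benjamini-Hochberg adjustment over 17013 tested genes), with DESeq2 1.42.0 and limma 3.58.1 (voom) as alternatives, in R 4.3.3. The typical variation between libraries of a group was 25.1% of the mean. CPM are counts over the TMM-scaled library size, and log2 CPM have a prior count of 2. The standard error is the log2 fold change over the root of the F statistic. Counts of the members lay between 29 and 1509 per library, and no molecular identifiers are in the files. The tests were run on simulated counts with planted changes, where DESeq2 made more false calls than edgeR or limma-voom. Those counts were drawn with dispersions that edgeR had estimated from these same libraries. The run therefore cannot rank the tools on the real counts. Other alternatives were DESeq2 size factors or total count in place of TMM, no filter, a minimum of 10 counts in every library, each library left out, a block for the replicate number, and looser call rules. Pairs of libraries differed by more than sampling noise (a chi-square of 18.5 to 90.1 per degree of freedom). Shared sequence was measured on 50-base stretches of GENCODE M21 transcripts on both strands.

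The members, the pathway and marker lists and the tests were chosen with earlier results of these data known. Named were all members, the 2 genes of each pathway list with the smallest p, its most abundant gene, the marker sums, and at least the nearest list gene of each member. For ligand delivery the second most abundant gene, Cd14, was named too. Nfkb2, Rel, Irf3 and Ticam1 fall outside this rule and were chosen after their values were seen. The same holds for the single markers of stroma, smooth muscle, epithelium, dendritic cells, mast cells, and vagina and cervix. It also holds for the macrophage markers Cd68, Mrc1 and Lyz2. Of the marker genes, Itgam and Sprr3 were not analysed here, and the number of unused per-sample columns was 0.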

Additional observations from a re-analysis of the deposited data

How the results depend on the processing

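The number of members called was 0 in every fit that kept the call rule and 3 at an unadjusted p under 0.05. Over all tested genes 25 were called, against 632 with DESeq2's Wald test, 203 without a filter, 2 with the replicate block and 3228 at an unadjusted p under 0.05, and between 1 and 578 with a library left out (1 without aged-SP replicate 1, 49 without aged-SP replicate 4, 578, 3 and 2 without young-SP replicates 1, 2 and 4). In the pathway lists 0 were called, against 1 with DESeq2, 8 at an unadjusted p under 0.05, and 0 to 3 with a library left out (1 lacking aged-SP replicate 4, 3 lacking young-SP replicate 1). The cause of these differences was not tested.

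With a library left out, the log2 fold change lay between 0.71 and 1.17 for Tlr4, between 0.64 and 1.09 for Tlr5, between 0.21 and 1.61 for Tlr2 and between -1.10 and -0.55 for Myd88, and these 4 genes, Ly96 and Tlr6 kept their sign in every fit. With 1 aged-SP library left, its spread was assumed to be that of the young-SP group. Values near 0 changed sign. Tlr1 was at 0.086 with limma-voom and 0.23 with the block, and at 0.17, 0.29 and 0.077 without aged-SP replicate 1 and young-SP replicates 1 and 2 (range -0.33 to 0.29 with a library left out). Tlr3 was at 0.072 without aged-SP replicate 4 and 0.24 without young-SP replicate 1 (range -0.22 to 0.24). Tlr7 was at -0.14 with the block, -0.41 without aged-SP replicate 4 and -0.12 without young-SP replicate 2, and Tlr9 at -0.14, -0.14 and -0.16 in the same fits (ranges -0.41 to 0.54 and -0.16 to 0.39). Leaving out a library moved Tlr13 between -0.93 and 0.077 (the latter lacking young-SP replicate 1) and Tnfaip3 between -0.085 (lacking aged-SP replicate 1) and 1.73. In the same way Tlr8 lay between -0.33 and 0.50 (-0.062 with the block), Hsp90b1 between -0.69 and 0.27, Ticam1 between -0.17 and 0.0017, Nfkb1 between -0.0076 and 0.30 and Nfkbia between -0.076 and 1.06.

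The replicate numbers 1 and 4 occur in both groups, but nothing says that they mark a shared animal or batch. Deviations of samples with the same number correlated at 0.152 and 0.136, and those of 1 aged-SP library mirror the other's. With the replicate block 0 members were called and Tlr4 was at 0.79. The number of young-SP replicate 2 occurs in no aged-SP library, so under the block that library adds nothing to the difference between the groups. With that library left out and no block, Tlr4 was at 0.80. Beyond this, the cause of the changes under the block was not tested. The median of all tested genes moved by at most 0.022 between fits. Tlr5 rests on 29 to 72 counts per library.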
